A study of Mus musculus with 12 samples.

Results

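The transcripts described here are those of 8 genes: the 6 mouse DNA topoisomerases Top1, Top1mt, Top2a, Top2b, Top3a and Top3b, and the tyrosyl-DNA phosphodiesterases Tdp1 and Tdp2. They were picked by symbol from the 32688 genes of an RNA-seq count table, and all 8 passed the filter on low counts that left 18066 genes. The cells were RAW264.7, a mouse macrophage line, as Null cells with TFEB and TFE3 and as CRISPR TFEB/TFE3 DKO cells lacking these related transcription factors. Each line was measured as a control and after 100 µM etoposide for 8 h, with 3 libraries in each of the 4 groups. The labels give the controls as untreated and the study's methods as treated with DMSO. Each genotype was represented by 1 line, so replicate libraries do not sample independent knockouts. The labels do not say whether the replicates came from separate cultures. The study calls the etoposide samples independent, without saying whether that means cultures, so p-values measure the spread between these libraries, which may in part be technical. Extraction used either of 2 RNA kits with no record of which library had which, so a kit effect cannot be told apart from the other differences.

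Topoisomerases cut DNA, let strands pass or rotate, and reseal the cut. While the break is open, the enzyme is joined to the DNA end through a tyrosine. Type II enzymes (Top2a and Top2b) open both strands and are the targets of etoposide, which holds them in the broken state. Type IB enzymes (Top1 in the nucleus and Top1mt in mitochondria) and type IA enzymes (Top3a and Top3b) open a single strand. Tdp1 and Tdp2 cut the bond between a trapped enzyme and DNA, Tdp1 mainly for Top1 at 3′ ends and Tdp2 mainly for the type II enzymes at 5′ ends.

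The total count per library ranged from 29837255 to 61809316, and no member had fewer than 656 counts in any library. Tfe3 lay at 42.5 CPM (counts scaled to a library of 1000000) or less in every DKO library and at 89.4 CPM or more in every Null library. Tfeb was lower in DKO than in Null cells by a log2 difference of -1.95 in control cells and of -0.79 after etoposide, which lowered Tfeb in Null cells by -1.15 (limma-trend adjusted p = 8.99e-05). Transcripts of both targeted genes were thus still counted in DKO cells. The titles of the DKO etoposide libraries hold the word MEFs (mouse embryonic fibroblasts), so markers of both cell types were examined. All 8 macrophage markers exceeded 1 CPM in every library, with summed levels of 4193 to 5132 CPM, although Fcgr1 was as low as 4.72 CPM in DKO etoposide cells. The 8 fibroblast markers summed to 0.152 to 2.04 CPM. Of these, 7 were at 0 in every Null control library, 6 in every DKO control library and 1 in every library of each etoposide group.

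Levels below are CPM after TMM scaling, given as the mean ± SD of 3 libraries. Differences are log2 fold changes from limma-trend, and a gene was called when its Benjamini-Hochberg adjusted p over all 18066 genes was under 0.05. In Null cells etoposide changed 5 of the 8 transcripts: Top2a, Top2b, Top3a and Tdp1 fell, and Top3b rose. Without Null control 2 or Null etoposide 2 the count was 2 (Top2a and Tdp1), and without Null control 1 or Null etoposide 3 it was 3 (these and Top3a). Over all genes 39.6% were called in that comparison, 20.9% as higher and 18.7% as lower. In DKO cells etoposide changed 6 of the 8, the same 5 in the same directions and also Tdp2, which fell, against 39.3% of all genes, 20.2% as higher and 19.1% as lower. The median difference over the 8 genes was -0.32 in Null and -0.44 in DKO cells, where the median over all genes was 0.03 in both. In these bulk samples fewer cells with a transcript and less of it per cell cannot be told apart.

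Without the drug the lines differed in 0 of the 8 transcripts by limma-trend, against 19.3% of all genes, 10.9% as higher and 8.39% as lower in DKO cells. By unadjusted p under 0.05 there was 1, Tdp2, and DESeq2 also called 1 whereas edgeR called 0. After etoposide 2 of the 8, Top2a and Tdp2, had lower levels in the DKO than in the Null libraries, against 33.6% of all genes, 15.9% as higher and 17.8% as lower. The drug response itself differed between the lines for 1 of the 8, Top2a, by the interaction of genotype and etoposide. That interaction was called for 9.45% of all genes, 3.07% as higher and 6.39% as lower. Over the 8 genes the medians were -0.08 in control cells, -0.05 after etoposide and 0.02 for the interaction, where the medians over all genes lay between -0.0122 and -0.000846. The comparisons are not independent, since the interaction uses the libraries of all 4 groups and each group enters 2 of the other comparisons.

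**Figure D1:**
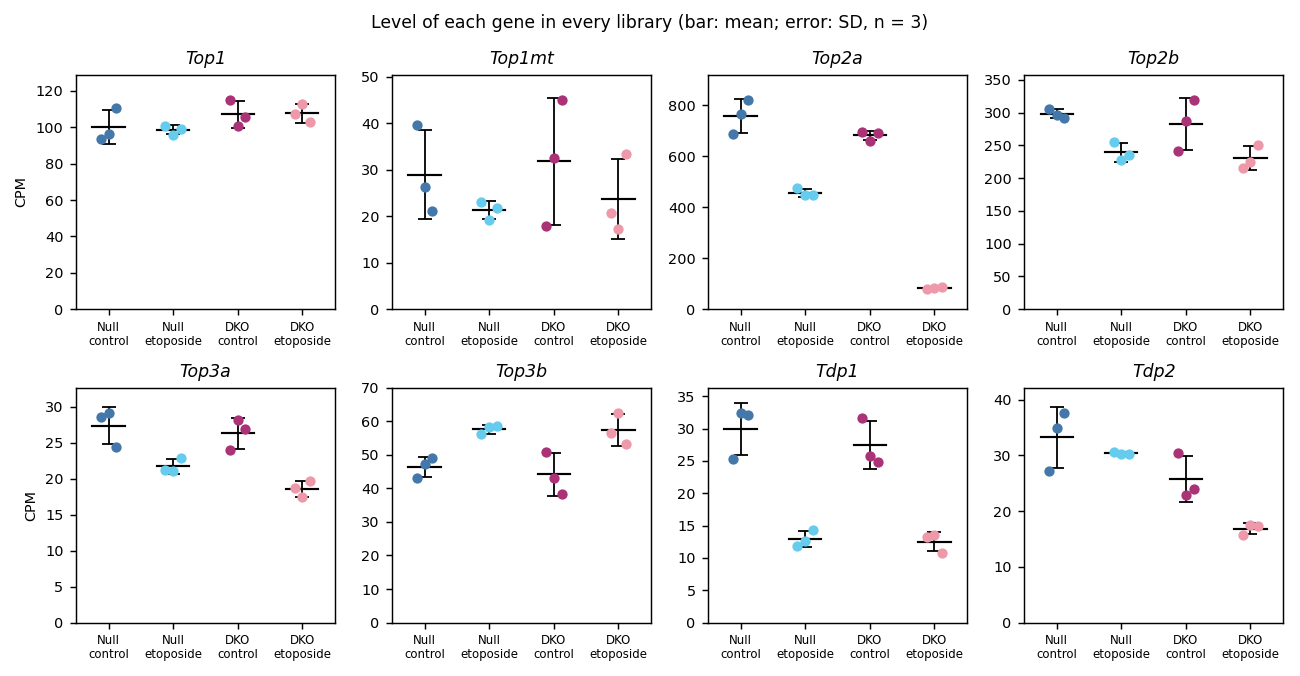
CPM (y axis, from 0) of each of the 8 genes in every library of the 4 groups (points), with the mean (bar) and SD (error bar, n = 3). Top2a fell from a mean of 759 to 457 CPM in Null cells and of 682 to 83.9 CPM in DKO cells, while the points of Top1 stayed between 93.5 and 115 CPM.

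**Figure D2:**
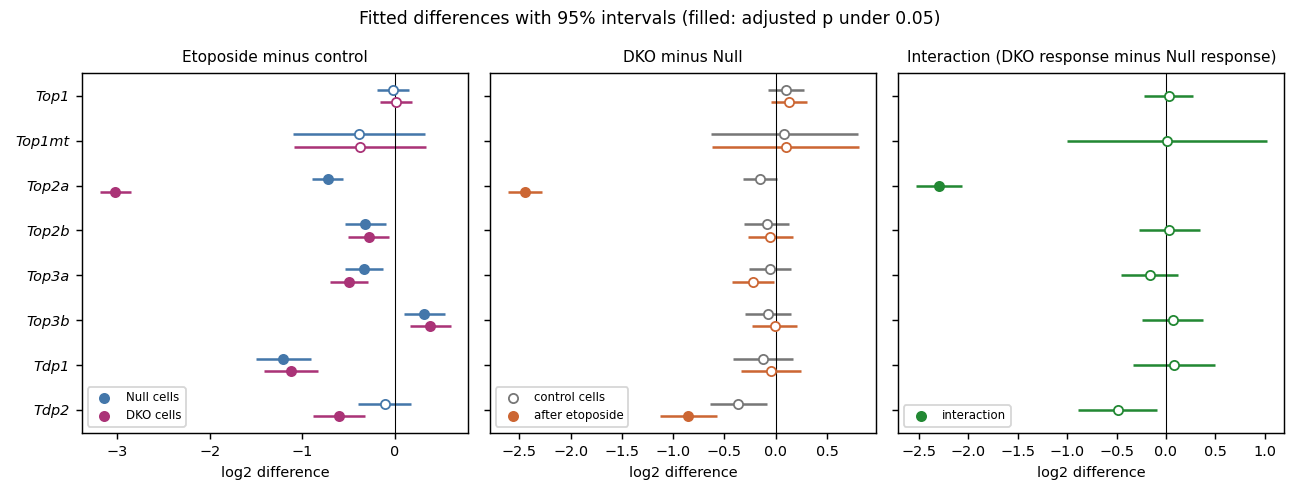
Fitted log2 differences (x axis) of the 8 genes with 95% intervals, for etoposide against control in each line, DKO against Null cells in each state, and the interaction. Filled points have a limma-trend adjusted p under 0.05. Top2a is the only filled point of the interaction, at -2.30.

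Top2a encodes the type II enzyme that separates replicated chromosomes before cell division, and it is made mainly in proliferating cells. Its gene (ENSMUSG00000020914, chr11:98992943-99024189, minus strand, GRCm38) gave the highest level of the family in control cells of both lines. In Null control cells Top2a stood at 690, 765 and 823 CPM, and after etoposide at 475, 450 and 447 CPM. In DKO control cells it stood at 694, 661 and 693 CPM, and after etoposide at 79.4, 85.2 and 87.1 CPM. Each etoposide group lay below its own controls without overlap, and the DKO etoposide libraries lay below every other library.

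Etoposide lowered Top2a by a log2 difference of -0.73 in Null cells (SE 0.0766, limma-trend adjusted p = 1.065e-05), so that it fell by 39.6%. In DKO cells the difference was -3.02 (SE 0.0766, limma-trend adjusted p = 2.09e-11), and Top2a fell by 87.7%. The response was deeper in DKO than in Null cells by -2.30 (SE 0.108, 95% interval -2.53 to -2.06, limma-trend adjusted p = 3.17e-08 for the interaction). After etoposide DKO cells held 5.45-fold less Top2a than Null cells (log2 difference -2.45, limma-trend adjusted p = 2.12e-10). In control cells the difference was -0.15 (95% interval -0.32 to 0.02, limma-trend adjusted p = 0.220). With library size alone in place of TMM scaling, the control difference was -0.23 and was called (limma-trend adjusted p = 0.0389).

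The bases before the Top2a start are shown because the gene is known to be transcribed mainly in G2 phase, and CCAAT boxes and cell cycle homology regions are common elements of such promoters. RefSeq promoter sequences (GRCm38.p6) were at hand for 5 of the 8 genes: Top1, Top2a, Top2b, Top3b and Tdp1. Both strands of up to 250 bases upstream of each start were searched for CCAAT, for the cell cycle homology region (TTTGAA or TTCGAA), for the E-box CACGTG bound by TFEB and TFE3, and for E2F sites (TTTCGCGC, TTTCCCGC or TTTGGCGC). None of these motifs overlapped another in the sequences printed here. The sequences run 5′ to 3′ on the gene's strand, and capitals mark the matches, with ATTGG and TTCAAA read from the other strand. Top2a is at chr11:99024190-99024439 on the minus strand, Top2b at chr14:16364956-16365178 on the plus strand.
Top2a: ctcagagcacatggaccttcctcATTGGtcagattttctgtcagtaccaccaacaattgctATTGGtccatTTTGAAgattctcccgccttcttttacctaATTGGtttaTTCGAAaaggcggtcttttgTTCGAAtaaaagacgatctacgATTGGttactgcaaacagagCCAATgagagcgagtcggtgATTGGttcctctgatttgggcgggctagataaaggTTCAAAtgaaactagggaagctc
Top2b: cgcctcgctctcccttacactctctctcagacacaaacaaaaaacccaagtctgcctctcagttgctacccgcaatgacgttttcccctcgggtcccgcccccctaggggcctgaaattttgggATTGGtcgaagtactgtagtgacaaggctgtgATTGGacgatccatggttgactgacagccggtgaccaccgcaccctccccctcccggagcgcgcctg
The Top2a window held 6 CCAAT boxes and 4 cell cycle homology matches, the one nearest the start at bases -23 to -18. The Top2b window, of 223 bases, held 2 CCAAT boxes and 0 cell cycle homology matches. Of 32851 promoters in the table, 33.8% held at least 1 CCAAT box and 17.1% at least 1 cell cycle homology match. At least 6 CCAAT boxes were found in 19 of them (0.0578%), and at least 4 cell cycle homology matches in 0.0183%. E2F site letters were found in none of the 5 promoters searched and in 1.53% of all promoters. A match is a description of letters and not of a bound site.

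Top2b encodes the type II enzyme that is also made in cells that no longer divide, where it acts at transcribed and looped regions. Its gene (ENSMUSG00000017485, chr14:16365179-16435462, plus strand) overlaps exons of Rarb on the opposite strand. The Rarb counts, scaled to the shared exon bases, equalled at most 2.89% of those of Top2b. Top2b stood at 306, 297 and 292 CPM in Null control cells and at 255, 228 and 235 CPM after etoposide, without overlap. It stood at 241, 287 and 320 CPM in DKO control cells and at 216, 225 and 251 CPM after etoposide, where 1 etoposide library exceeded the lowest control.

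Top2b fell by 19.8% with etoposide in Null cells (log2 difference -0.32, limma-trend adjusted p = 0.0234) and fell by 18.0% in DKO cells (-0.29, limma-trend adjusted p = 0.0390). The calls were not stable. In DKO cells the call was lost in 13 of 22 alternative fits, 8 of which left out 1 library, with limma-trend adjusted p of up to 0.166 without DKO etoposide replicate 1. With the replicate number as a block it had adjusted p = 0.0582. In Null cells it was lost without Null control replicate 1 or 2 and without Null etoposide replicate 2 or 3, with limma-trend adjusted p from 0.0550 to 0.0896. Neither comparison between the lines was called for Top2b, and the interaction was 0.03 (95% interval -0.27 to 0.34).

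The balance of the type II pair was compared per length, dividing CPM by the kilobases of exon of each gene. On that scale Top2a made up 80.4% ± 1.77 of the summed Top2a and Top2b level in Null control cells and 75.6% ± 0.546 after etoposide. It made up 79.7% ± 2.37 in DKO control cells and 37.1% ± 1.05 after etoposide. In DKO cells after etoposide the order of the pair was thus turned, with Top2b above Top2a in every library. The share with etoposide minus that of the controls was -4.80 points in Null cells and -42.6 points in DKO cells, in groups that did not overlap. Each of these had p = 0.1 in a two-sided exact permutation test of 3 against 3 libraries, the smallest p that this design can give. In control cells the lines differed by -0.727 points (exact permutation p = 0.8).

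The summed level of the 6 topoisomerases was 140 ± 3.17 CPM per kilobase in Null control and 98.6 ± 3.48 in Null etoposide cells. It was 132 ± 8.60 in DKO control and 57.9 ± 4.99 CPM per kilobase in DKO etoposide cells. Top2a supplied 60.1% and 57.6% of the sum in the control groups of Null and DKO cells, 51.5% in Null etoposide cells and 16.1% in DKO etoposide cells. The share of Top1, the nuclear type IB enzyme, was 6.86% in Null control and 9.59% in Null etoposide cells. It was 7.83% in DKO control and 18.0% in DKO etoposide cells. On the length of the longest transcript the Top1 shares were larger, 10.996% and 15.1% in Null and 12.5% and 28.0% in DKO cells, whereas that of Top2a in DKO etoposide cells was 16.1%.

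**Figure D3:**
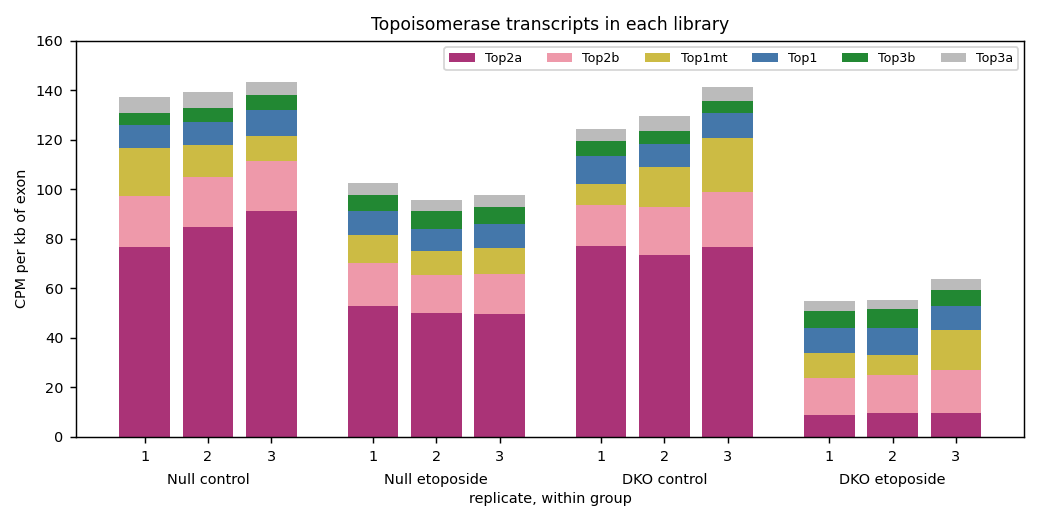
CPM per kilobase of exon (y axis, from 0) of the 6 topoisomerase transcripts, stacked for each library (x axis, replicates within the 4 groups). The total falls from 140 to 98.6 in Null and from 132 to 57.9 in DKO cells, and the Top2a segment is the one that shrinks most.

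The order of the 8 transcripts per length depended on the length used. On the union of exons, Null control cells ranked as Top2a (84.2 CPM per kilobase), Top2b (20.4), Top1mt (14.2), Tdp2 (10.1), Top1 (9.61), Top3a (5.95), Top3b (5.52) and Tdp1 (3.75). The ranges of the libraries overlapped between Top1mt and Tdp2, between Tdp2 and Top1, and between Top3a and Top3b, and between no other neighbours. In DKO etoposide cells the order was Top2b (15.8 CPM per kilobase), Top1mt (11.6), Top1 (10.3), Top2a (9.31), Top3b (6.83), Tdp2 (5.13), Top3a (4.04) and Tdp1 (1.57). There Top1mt overlapped both Top2b and Top1, and no other neighbours overlapped.

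The union of exons of Top1 (10426 bases) and Top3b (8400) is far longer than their longest transcripts (3856 and 3511 bases). On the longest transcript, an alternative chosen after seeing the data, Top1 came directly after Top2b in Null control cells (25.98 CPM per kilobase), in overlapping ranges. Top1 then stood first in DKO etoposide cells (27.9), Top3b stood above Top3a in all 4 groups, and Tdp1 and Top3a overlapped in the control groups. On both lengths Top2a was the highest in 3 groups and the fourth in DKO etoposide cells. There the range of Top1mt overlapped that of Top2a on both lengths, and that of Top3b did so on the longest transcript.

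Top1 removes supercoils ahead of replication and transcription forks and is the target of camptothecin, not of etoposide. Its gene is ENSMUSG00000070544 (chr2:160645888-160722764, plus strand). Top1 stood at 93.5, 96.4 and 110.6 CPM in Null control and at 100.8, 95.9 and 98.9 CPM in Null etoposide cells. It stood at 115, 100.8 and 105 CPM in DKO control and at 107, 113 and 103 CPM in DKO etoposide cells. The etoposide difference was -0.02 in Null cells (95% interval -0.19 to 0.15) and 0.01 in DKO cells (95% interval -0.17 to 0.18), with limma-trend adjusted p = 0.872 and 0.948. These intervals span changes from -12.6% to 13.5%. After etoposide the DKO libraries lay above the Null libraries without overlap, by a log2 difference of 0.13 that was not called (limma-trend adjusted p = 0.253).

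Top1 was the only member among the 5 searched whose promoter held the E-box CACGTG, present in 6.02% of all promoters of the table. It is shown because TFEB and TFE3, the factors targeted in DKO cells, bind this motif. The E-box, in capitals, lies at bases -205 to -200, in the window chr2:160645675-160645714 on the plus strand.
Top1: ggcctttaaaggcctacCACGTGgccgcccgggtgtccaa
Top1 itself was not called in any of the 5 comparisons.

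Top1mt, the mitochondrial type IB enzyme, relaxes mitochondrial DNA (ENSMUSG00000000934, chr15:75657035-75678800, minus strand). It varied more between replicates than any other member. Its levels were 39.6, 26.2 and 21.1 CPM in Null control, 23.1, 19.2 and 21.8 in Null etoposide, 17.8, 32.4 and 45.0 in DKO control, and 20.7, 17.2 and 33.4 CPM in DKO etoposide cells. Groups overlapped in all 4 comparisons, and none was called. The etoposide difference was -0.39 in Null cells with a 95% interval of -1.10 to 0.32, and -0.38 in DKO cells with an interval of -1.09 to 0.34, so changes of either sign fit within them. Null control 1, DKO control 3 and DKO etoposide 3 held the highest Top1mt level of their groups. Those 3 libraries also deviated together from their group means over all genes (r from 0.37 to 0.39 across genes, which are not independent replicates). Null control 3, DKO control 1 and DKO etoposide 2, which held the lowest Top1mt levels of their groups, deviated together more strongly (r from 0.43 to 0.58). The part of these shared deviations in the Top1mt values was not tested.

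Top3a encodes the type IA enzyme that works with the Blm helicase and the Rmi1 and Rmi2 proteins to undo recombination intermediates, and it also acts in mitochondria (ENSMUSG00000002814, chr11:60740058-60777365, minus strand). Top3a stood at 28.5, 29.1 and 24.4 CPM in Null control and at 21.2, 21.03 and 22.9 CPM in Null etoposide cells. It stood at 23.9, 28.1 and 26.9 CPM in DKO control and at 18.6, 17.5 and 19.7 CPM in DKO etoposide cells. Each etoposide group lay below its controls without overlap. Top3a fell by 20.5% in Null cells (log2 difference -0.33, limma-trend adjusted p = 0.0143) and fell by 29.1% in DKO cells (-0.50, limma-trend adjusted p = 0.00112). The Null call was lost without Null control replicate 2 (limma-trend adjusted p = 0.0646) and without Null etoposide replicate 2 (0.0553). After etoposide the lines differed by -0.22 without overlap, which was not called (limma-trend adjusted p = 0.0910) but was called with library size alone (0.0444) and in a fit of the 2 groups compared (0.0333).

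Top3b, the other type IA enzyme, acts with the protein Tdrd3 and also works on RNA (ENSMUSG00000022779, chr16:16870736-16892990, plus strand). It was the only member that rose. Top3b stood at 43.0, 47.2 and 49.0 CPM in Null control and at 56.1, 58.2 and 58.6 CPM in Null etoposide cells. It stood at 51.0, 43.2 and 38.4 CPM in DKO control and at 56.4, 62.5 and 53.2 CPM in DKO etoposide cells. The etoposide libraries lay above the controls in both lines. The rise was 24.4% in Null cells (log2 difference 0.32, limma-trend adjusted p = 0.0265) and 30.3% in DKO cells (0.38, limma-trend adjusted p = 0.00985). The Null call was lost without Null control replicate 1 or 2 and without any 1 of the 3 Null etoposide replicates, with limma-trend adjusted p from 0.0586 to 0.0854. Between the lines the differences were -0.08 in control cells and -0.01 after etoposide, and the interaction was 0.07 (95% interval -0.25 to 0.38).

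Tdp1 removes trapped Top1 and other blocks from 3′ ends (ENSMUSG00000021177, chr12:99884517-99955219, plus strand). Of the 8 transcripts it had the largest fall in Null cells. Tdp1 stood at 25.3, 32.4 and 32.2 CPM in Null control and at 11.9, 12.6 and 14.2 CPM in Null etoposide cells. It stood at 31.7, 25.8 and 24.8 CPM in DKO control and at 13.3, 13.6 and 10.8 CPM in DKO etoposide cells. The etoposide libraries of both lines lay in the same low range, well under all controls.

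Tdp1 fell by 56.7% with etoposide in Null cells (log2 difference -1.21, SE 0.135, limma-trend adjusted p = 1.85e-05) and fell by 54.2% in DKO cells (-1.13, SE 0.135, limma-trend adjusted p = 3.05e-05). Both calls held in all 22 alternative fits. The interaction was 0.08 (95% interval -0.34 to 0.50, limma-trend adjusted p = 0.886). Between the lines Tdp1 differed by -0.13 in control cells and by -0.04 after etoposide, neither called. The Tdp1 promoter held 1 cell cycle homology match, at bases -39 to -34 from the RefSeq start, and 0 CCAAT boxes. The bases just after that start were not found as a run in a GENCODE M21 transcript of Tdp1, unlike those of the other promoters shown.

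Tdp2 removes trapped type II enzymes from 5′ ends and so acts on the lesion that etoposide makes (ENSMUSG00000035958, chr13:24831679-24842153, plus strand). Tdp2 stood at 27.1, 34.9 and 37.6 CPM in Null control and at 30.7, 30.3 and 30.3 CPM in Null etoposide cells. It stood at 30.5, 22.9 and 23.9 CPM in DKO control and at 15.7, 17.5 and 17.4 CPM in DKO etoposide cells. The DKO etoposide libraries lay below all others, whereas the Null etoposide libraries lay within the range of their controls.

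In Null cells the etoposide difference of Tdp2 was -0.11 (95% interval -0.39 to 0.17, limma-trend adjusted p = 0.533). In DKO cells Tdp2 fell by 34.1% (log2 difference -0.60, SE 0.129, limma-trend adjusted p = 0.00267). After etoposide it was 1.80-fold lower in DKO than in Null cells (-0.85, limma-trend adjusted p = 2.53e-04). The test of the difference between the 2 responses did not pass, at -0.49 (95% interval -0.89 to -0.09, limma-trend adjusted p = 0.138). In control cells the lines differed by -0.36 (limma-trend adjusted p = 0.0723). That difference was called without Null control replicate 1 (-0.50, limma-trend adjusted p = 0.00958), without DKO control replicate 1 (-0.51, 0.00748) and in 4 further alternatives. Null control 1 held the lowest and DKO control 1 the highest Tdp2 level of their groups. Over all genes these libraries deviated in opposite directions, and the part of that deviation in the Tdp2 values was not tested.

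Likeness of pattern was measured for the members whose group means spanned at least 1 on the log2 scale, which were Top2a (3.17) and Tdp1 (1.25). The measure was the root mean square difference of log2 CPM, centred on each gene's mean, over the 12 libraries and against 18065 other genes. Among the 3 genes closest to Top2a were Kif20b, a mitotic kinesin, at 0.0936 and Ercc6l, a DNA translocase of mitotic chromosomes, at 0.117. Kif20b, for example, had means of 139 ± 9.33 CPM in Null control and 73.4 ± 2.90 in Null etoposide libraries, and of 122 ± 7.55 and 13.7 ± 1.28 CPM in the DKO groups. Closest to Tdp1 were Slc3a2, a subunit of amino acid transporters, at 0.0952, Mettl9, a methyltransferase, at 0.103, and Psat1, an enzyme of serine synthesis, at 0.118. Slc3a2 ran from 183 ± 22.1 to 80.3 ± 4.09 CPM with the drug in Null libraries, and from 163 ± 25.4 to 71.0 ± 5.205 CPM in DKO cells. Slc3a2 thus fell by a like amount in both lines, and Kif20b fell further in DKO cells.

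Genes of the cell cycle phases in which Top2a is made fell beside it. Of 12 G2 and M phase genes, etoposide lowered 10 in Null cells (median log2 difference -0.95) and all 12 in DKO cells (median -3.89), and the interaction was called for all 12, each negative (median -2.96). Over all genes 18.7% were called as lower in Null and 19.1% in DKO cells, and 6.39% had a negative interaction called. The interaction of Top2a, at -2.30, lay within their range, from -4.30 for Ccnb2, a mitotic cyclin, to -0.75 for Aurka, a spindle kinase. Ccnb2 stood at 139 ± 4.98 and 61.8 ± 0.834 CPM in Null control and etoposide cells, and at 160 ± 25.3 and 3.54 ± 0.598 CPM in the DKO groups. In control cells limma-trend called 0 of the 12 between the lines, against 19.3% of all genes. There edgeR also called 0, while 3 had an unadjusted p under 0.05 and DESeq2 called 3. Of 12 S phase genes, all 12 fell in both lines, with medians of -0.58 in Null and -1.52 in DKO cells, and the interaction was called for 10, all negative. Rrm2, a ribonucleotide reductase subunit, fell by 2.82 on the log2 scale in DKO cells, and Pola1, a DNA polymerase subunit, fell by 1.85 in Null cells. In control cells 5 of the 12 S phase genes were lower in DKO cells, Mcm5 of the replicative helicase by -1.15, against 8.39% of all genes.

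**Figure D4:**
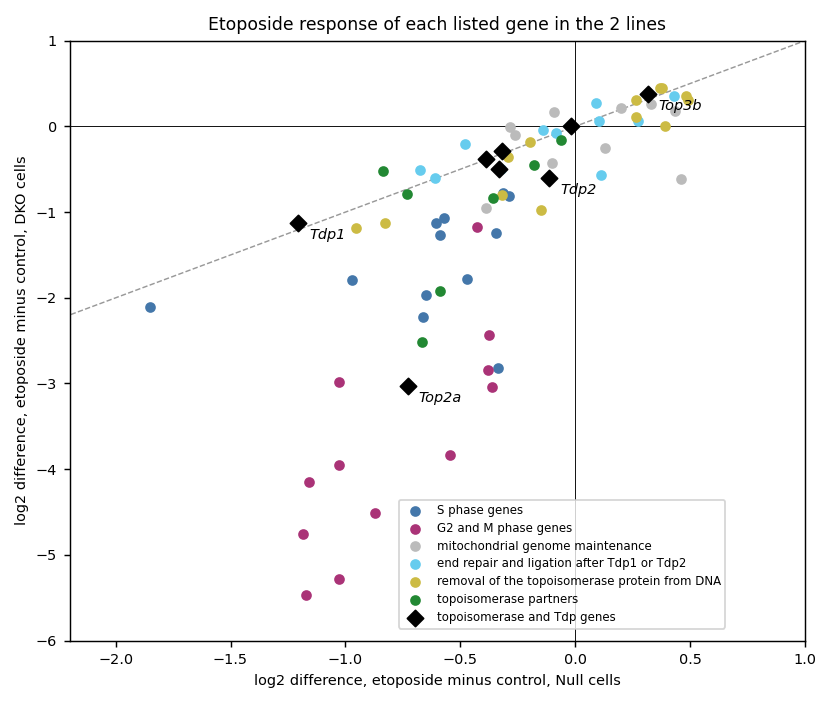
Log2 difference with etoposide in DKO cells (y axis) against that in Null cells (x axis) for the 8 members (diamonds) and the genes of 6 lists (circles). The dashed line marks equal responses. Tdp1 and Top3b lie near it, whereas Top2a, at -0.73 and -3.02, lies below it among the S phase and G2 and M phase genes.

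Of 7 topoisomerase partners, etoposide lowered 4 in Null cells (median -0.59) and 6 in DKO cells (median -0.78), with none higher, against 18.7% and 19.1% of all genes called as lower. Blm, the helicase partner of Top3a, stood at 79.6 ± 2.39 CPM in Null control and 50.1 ± 2.54 in Null etoposide cells. It stood at 63.5 ± 1.66 CPM in DKO control and 11.1 ± 0.365 in DKO etoposide cells, the largest fall of the list in DKO cells (log2 difference -2.51). Its interaction was -1.85 (limma-trend adjusted p = 6.10e-08). Rmi2, which joins Blm and Top3a, also had a negative interaction, of -1.33 (limma-trend adjusted p = 0.0222), on levels of 4.81 ± 1.52 CPM at most. Topbp1, a checkpoint protein that binds a topoisomerase, had one of -0.48 (limma-trend adjusted p = 0.0263). Tdrd3, the partner of Top3b, fell by 0.84 in Null cells, where Top3b itself rose. Topors, a ligase that binds Top1, had the smallest differences, -0.06 in Null and -0.16 in DKO cells, neither called. Between the lines, 2 of the 7 were lower in DKO control cells, Rmi2 by -1.74 and Blm by -0.33, and 4 after etoposide, against 8.39% and 17.8% of all genes. Rmi1 was among those lower in DKO cells, with etoposide by -0.45 and against Null cells after etoposide by -0.49. Its neighbour Hnrnpk overlaps it on the opposite strand. The Hnrnpk counts, scaled to the shared exon bases, equalled up to 495% of those of Rmi1.

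Of 13 genes listed for the removal of a trapped topoisomerase protein from DNA, 6 rose and 5 fell in Null cells (median 0.26). In DKO cells 4 rose and 6 fell (median 0.01). Called in either direction were thus 11 and 10 of the 13, against 39.6% and 39.3% of all genes. Rbbp8, which starts the cutting of protein-blocked ends with the Mre11 complex, fell by 0.95 in Null cells and fell by 1.18 in DKO cells. Sprtn, a protease for proteins joined to DNA, rose by 0.49 in Null cells (limma-trend adjusted p = 0.00709). Mus81, a structure-specific nuclease subunit, rose by 0.45 in DKO cells (limma-trend adjusted p = 0.00241). The only interaction called by limma-trend was that of Rad50, a subunit of the Mre11 complex, at -0.49 (limma-trend adjusted p = 0.0352). DESeq2 called 2 of the 13. By limma-trend 9.45% of all genes had an interaction called. Between the lines 2 of the 13 were higher in DKO control cells, of which Ercc1, a nuclease subunit, differed most, by 0.35. The counts of an overlapping neighbour, scaled to the shared exon bases, equalled up to 11.96% of those of Ercc1. Over all genes 10.9% were called as higher in DKO control cells. After etoposide 1 was higher and 5 were lower, against 15.9% and 17.8% of all genes. Fen1, a flap nuclease, differed most, by -1.20. It overlaps a gene on the opposite strand whose counts, scaled to the shared exon bases, equalled up to 56.4% of those of Fen1.

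Of 11 genes that act on the ends left by Tdp1 or Tdp2, 2 rose and 4 fell in Null cells (median -0.08), and 1 rose and 4 fell in DKO cells (median -0.08), against 39.6% and 39.3% of all genes called in either direction. Lig4, the ligase of end joining, rose by 0.43 in Null cells and by 0.36 in DKO cells. Prkdc, the DNA-dependent protein kinase, fell by 0.67 in Null cells, and Parp1, a sensor of broken ends, fell by 0.60 in DKO cells. Xrcc1, the scaffold of single-strand break repair that works after Tdp1, was the only gene of this list called in the interaction, at -0.67 (limma-trend adjusted p = 0.00122). That was 1 of 11, a share close to the 9.45% of all genes called in the interaction. Xrcc1 stood at 74.5 ± 0.880 and 80.6 ± 1.11 CPM in Null control and etoposide cells and at 77.8 ± 6.68 and 52.6 ± 3.18 CPM in the DKO groups. Nhej1, an end joining factor, was higher in DKO cells by 0.83 without and by 0.79 with the drug, at levels of 1.84 to 3.42 CPM. In all, 2 of the 11 were higher in DKO control cells, where 10.9% of all genes were. After etoposide 3 were higher and 2 lower, against 15.9% and 17.8% of all genes.

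Of 10 genes that copy, transcribe or maintain mitochondrial DNA, where Top1mt acts, 2 rose and 2 fell in Null cells (median 0.02), and 1 rose and 3 fell in DKO cells (median -0.05). In both lines 4 of the 10 were thus called, a share close to the 39.6% and 39.3% of all genes. Primpol, a primase and polymerase, fell by 0.39 in Null cells and fell by 0.96 in DKO cells, and Polrmt, the mitochondrial RNA polymerase, rose by 0.26 in DKO cells. Primpol and Mgme1, an exonuclease, were called in the interaction, at -0.57 and -1.07, against 9.45% of all genes called and 6.39% with a negative value. Neighbours overlap Primpol and Mgme1 on the opposite strand. Their counts, scaled to the shared exon bases, equalled up to 22.9% of those of Primpol and up to 108% of those of Mgme1. Mgme1 rose by 0.46 in Null cells. Between the lines 2 of the 10 were lower in DKO control cells, Polg2, a subunit of the mitochondrial polymerase, by -0.38. The counts of a neighbour that overlaps Polg2, scaled to the shared exon bases, equalled up to 25.8% of those of Polg2. Over all genes 8.39% were called as lower in DKO control cells. After etoposide 1 was higher, Ssbp1, which binds single-stranded mitochondrial DNA, by 0.47, and 4 were lower, against 15.9% and 17.8% of all genes.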

How the data were processed

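RNA-seq counts of 12 RAW264.7 libraries (Null and DKO cells, control and etoposide, 3 each) were analysed. According to the study's methods, the authors depleted total RNA of ribosomal RNA, prepared stranded libraries, sequenced read pairs, aligned them with HISAT2 and kept uniquely mapped pairs. The methods name HTSeq with a GENCODE annotation for counting, whereas the submitters' processing notes name featureCounts and mm10. Versions, the annotation release and the strand setting are not given in the sources used here. The deposited table holds raw gene counts that were not normalized. Without a stated strand setting, reads of a gene and an overlapping neighbour cannot be told apart. For members and list genes, the overlap was taken as the neighbour's counts per exon base times the shared exon bases. The largest overlap of each such gene named is given where it exceeds 10% of the gene's counts. Overlaps of the genes most like a member were not examined.

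Identifiers were matched without version to GENCODE M21 (GRCm38), in which 99.43% were found, and the coordinates are from that annotation. Exon lengths are the union of a gene's exons. Counts were filtered with filterByExpr (edgeR 4.0.16), scaled by TMM and converted to log2 CPM with a prior count of 3. All 12 libraries entered 1 limma-trend fit (limma 3.58.1, robust) with a mean per group, two-sided, with Benjamini-Hochberg adjustment over 18066 genes and calls at adjusted p under 0.05. The fit was tested on simulated data. Alternatives were DESeq2 1.42.0, edgeR's quasi-likelihood test, other scalings, filters and prior counts, a replicate block, each library left out, and, chosen after seeing the data, either of 2 sets of 3 libraries left out together and the longest transcript as length. The members, the gene lists and the rules for named genes were chosen with earlier results of these data known. Genes named from a list were taken from those with the largest or the smallest difference in a comparison and those called in the interaction, and Rmi1 was added for its overlap. Of the 3 genes most like Top2a, 1 is not reported here.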

Additional observations from a re-analysis of the deposited data

Results flagged for a closer look

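The interaction of genotype and etoposide, which tests whether the drug response differed between DKO and Null cells, was called by limma-trend for Top2a and for 29 of the 65 genes of the lists, in each case with a negative value. Over all genes 9.45% were called, 3.07% with a positive and 6.39% with a negative value. Values are differences of log2 fold changes from limma-trend at an adjusted p under 0.05. Top2a stood at -2.30. Among the partners, Blm stood at -1.85, Rmi2 at -1.33 and Topbp1 at -0.48. In the repair lists Rad50 stood at -0.49 and Xrcc1 at -0.67, and in the mitochondrial list Mgme1 at -1.07 and Primpol at -0.57.

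All 12 G2 and M phase genes were among them. Ccnb2 stood at -4.30, Plk1 at -4.26, Ttk at -3.64, Kif11 at -3.57, Ccnb1 at -3.28 and Mki67 at -2.99. Ccna2 stood at -2.92. It overlaps a neighbour on the opposite strand whose counts, scaled to the shared exon bases, equalled up to 28.6% of those of Ccna2. Bub1 stood at -2.67, Aurkb at -2.47, Cdk1 at -2.05, Tpx2 at -1.96 and Aurka at -0.75. Of the S phase genes, Rrm2 stood at -2.48, Cdc6 at -1.56, Tyms at -1.32 and Rrm1 at -1.31. Mcm7 stood at -0.90, Mcm6 at -0.82, Pcna at -0.68, Mcm3 at -0.52, Mcm5 at -0.52 and Mcm4 at -0.46. The other 7 topoisomerase and Tdp transcripts had no interaction past the threshold, and Tdp2 came nearest at -0.49 (limma-trend adjusted p = 0.138).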

How the results depend on the processing

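The counts of members called stayed within 1.5 times of those reported in most settings. Leaving out 1 library gave 5 to 6 in DKO cells and 0 to 1 between the lines in control cells. In Null cells it gave 2 to 5, with 2 without Null control replicate 2 or Null etoposide replicate 2. Without those libraries in turn, 6118 and 5921 of all genes were called in Null cells. Requiring a log2 change of 1 or more in size left 1 in Null cells, 2 in DKO cells and 1 between the lines after etoposide. That limit left 2381, 2370 and 2167 of all 18066 genes in the same comparisons. In control cells library size alone gave 2, the DESeq2 Wald test 1, and leaving out either set of 3 libraries that deviated together 1. Of all genes, library size alone called 3636, the DESeq2 Wald test 3968, and the fits without either set 3008 and 4211. The calls of Top2a in the 4 comparisons that named it and of Tdp1 held in all fits other than that fold limit, which ended the Top2a call in Null cells. The calls of Tdp2 held likewise in DKO cells and between the lines after etoposide, where the fold limit ended both.

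Replicate numbers did not pair the libraries (r of their deviations from the group means -0.54 to 0.39, 1 of 18 same-number pairs over 0.1). With the replicate block, Top2b in DKO cells kept its difference of -0.29 and lost its call, so 5 members were called there, and no other call of a member changed. The block lowered the genes called from 7148 to 6450 in Null and from 7108 to 6420 in DKO cells.

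The share of Top2a among type II transcripts differed between the lines in control cells by -2.06 to 0.199 points when 1 library was left out. With the length of the longest transcript in place of all exons, the share after etoposide differed by -37.2 points. Differences that changed sign were uncalled in every case. Without the filter on low counts Top1 in DKO cells was at -0.00218. Without Null control 1, DKO control 3 and DKO etoposide 3, Top1mt (-0.17), Top3b (0.0465) and Tdp1 (0.0638) after etoposide and the Top1mt interaction (-0.19) changed sign. Without Null control 3, DKO control 1 and DKO etoposide 2, so did Top1 in Null cells (0.0383), Top2b in control cells (0.0136) and the interactions of Top1 (-0.0234) and Top2b (-0.0417). Leaving out 1 library, Top1 ranged over -0.0694 to 0.0535 in Null cells, -0.0279 to 0.0686 in DKO cells and -0.0457 to 0.10 in the interaction. Top1mt ranged over -0.21 to 0.43 in control cells, -0.17 to 0.31 after etoposide and -0.33 to 0.31 in the interaction. Top2b ranged over -0.18 to 0.00697, -0.11 to 0.00124 and -0.0548 to 0.13, and Top3b over -0.20 to 0.0212, -0.0682 to 0.0468 and -0.0298 to 0.20 in the same order, while Tdp1 after etoposide ranged over -0.0986 to 0.0641. The causes of these changes were not tested. Of the results for single genes, 836 alternatives kept direction and call, 33 lost and 9 gained a call, and 34 changed sign. With 3 libraries a group and the spread of Top1mt (SE 0.327 for its etoposide differences), Top1mt differences within its intervals could not be told from 0. Differences of that size were called for members with less spread, such as Tdp2 at -0.60 in DKO cells (SE 0.129).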
